A study of Mus musculus with 10 samples.

Results

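The NRF2 and antioxidant defence genes described here are a list of 34 mouse genes: the transcription factor Nfe2l2 (NRF2), its inhibitor Keap1, and enzymes that make or recycle glutathione and thioredoxin, remove peroxides, superoxide and quinones, or supply NADPH. A gene was taken by its symbol. It counted as measured where a probe set was annotated to that symbol alone, and the probe set with the highest mean signal stood for it. By this rule 30 of the 34 were found among 18193 named genes of the array, and 29 of them were among the 12196 genes bright enough to be tested. Kidneys came from 5 mice on long-term calorie restriction and 5 mice on the control diet. All were male C57BL/6 mice of 30 months, and 1 mouse gave 1 array. How strong the restriction was, how long it lasted and whether the mice had been fed at collection are not given in the labels. Prdx1 was left out because its probe sets are also annotated to Gm21399, and Prdx5, Prdx6 and G6pdx had no probe set with that symbol alone and were not analysed here. Slc7a11, the cystine carrier, was measured but too dim to test. Signals are the authors' array intensities, in which the mean, trimmed of 2% of probe sets at either end, is 500 on every array. The mean over all probe sets was 786 to 831 on calorie-restricted and 755 to 768 on control arrays, and the rank correlation between arrays was 0.92 to 0.95. Differences are log2, calorie restricted minus control.

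NRF2 is a transcription factor that KEAP1 holds for degradation in unstressed cells. When electrophiles or oxidants modify KEAP1, NRF2 accumulates and binds antioxidant response elements with a small MAF protein, and genes such as Nqo1, Gclc, Gclm, Txnrd1 and Srxn1 are transcribed. In the kidney the proximal tubule does much oxidative work and is the main source of GPX3, the glutathione peroxidase of plasma. Superoxide dismutases turn superoxide into hydrogen peroxide, which glutathione peroxidases, peroxiredoxins and catalase then remove.

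The core of the antioxidant response element, searched as TGACNNNGC on both strands in the 250 bases before each RefSeq start (GRCm38.p6), was present for 7 of the 28 members with a promoter in the table used, or 25%, and for 11.5% of 27025 genes. No other motif was searched. Hmox1, Gsr, Msra, Gclc, Sod3 and Prdx6 are not in that table. The 7 were Nfe2l2, Gclm, Txnrd1, Sod1, Ggct, Prdx1 and G6pdx, the last 2 not analysed here. Nqo1 and Srxn1, also named above as targets, held no match to this core in the window. Of the 6 members that rose, only Sod1 held the core in this window. The promoters of the factor itself, of 2 of its known targets and of Sod1 are printed to show where the core lies, with the match in capitals (on the opposite strand it reads as the reverse complement).
Nfe2l2 (chr2:75704664-75704913, minus strand): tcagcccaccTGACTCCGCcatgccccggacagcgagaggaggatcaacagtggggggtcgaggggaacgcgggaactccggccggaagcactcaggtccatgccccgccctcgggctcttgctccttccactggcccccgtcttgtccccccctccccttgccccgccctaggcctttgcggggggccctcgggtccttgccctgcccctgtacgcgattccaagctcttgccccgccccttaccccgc
Gclm (chr3:122245307-122245556, plus strand): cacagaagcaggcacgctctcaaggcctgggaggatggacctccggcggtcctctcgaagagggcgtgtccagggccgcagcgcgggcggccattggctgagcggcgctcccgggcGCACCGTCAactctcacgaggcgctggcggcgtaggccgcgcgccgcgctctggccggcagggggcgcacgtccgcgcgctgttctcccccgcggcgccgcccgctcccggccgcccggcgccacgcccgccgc
Txnrd1 (chr10:82858956-82859205, plus strand): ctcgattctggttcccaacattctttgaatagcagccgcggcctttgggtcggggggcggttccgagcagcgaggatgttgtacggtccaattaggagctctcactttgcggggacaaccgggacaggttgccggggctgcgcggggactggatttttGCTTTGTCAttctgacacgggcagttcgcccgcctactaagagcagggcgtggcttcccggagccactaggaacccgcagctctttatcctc
Sod1 (chr16:90220512-90220761, plus strand): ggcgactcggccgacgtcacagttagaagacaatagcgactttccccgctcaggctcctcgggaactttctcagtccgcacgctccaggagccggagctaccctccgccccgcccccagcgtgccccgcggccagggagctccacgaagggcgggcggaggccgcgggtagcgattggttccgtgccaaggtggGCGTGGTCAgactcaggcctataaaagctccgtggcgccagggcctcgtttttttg
The match began 240 bases before the start for Nfe2l2, 134 for Gclm, 92 for this start of Txnrd1 (1 of its 3 starts in the table) and 56 for Sod1. A match is a description of these letters and not a measured binding site.

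Calorie-restricted kidneys had higher signals for the glutathione peroxidases Gpx1, Gpx3 and Gpx4, for 2 of 3 superoxide dismutases and for glutathione synthetase, while the transcription factor and its best-known targets did not pass the test. With the authors' scaling, 6 of 29 tested members passed an adjusted p of 0.05 in limma (Benjamini-Hochberg over 22517 probe sets), all 6 higher: Gpx1, Gpx3, Gpx4, Sod1, Sod2 and Gss. That is 20.7% of the tested members, beside 6.1% of all genes tested (3.08% higher and 3.02% lower). Most of the 6 are among the brightest genes. Gpx1, Gpx3, Gpx4 and Sod1 lie at or above log2 14, where 56.4% of genes passed as higher. Sod2 lies between 13 and 14, where 16.8% did. At an unadjusted p under 0.05 there were 11 of 29, beside 26.4% of all genes. Rises were between 0.26 and 0.49 on the log2 scale (1.20- to 1.41-fold). The median difference over the 29 members was 0.10, against -0.01 over all genes, and 19 of 29 (65.5%) lay above 0, against 49.2% of all genes. With quantile normalization, which levels the arrays at every brightness, 0 of 29 passed in limma (9 at an unadjusted p under 0.05). Of all genes 3.31% passed there. The difference of Sod1 was then -0.0026 and the median of the members was 0.05. The count also changed when a single array was left out, as did the share of all genes that passed. The member count was 0 without control replicate 2 (0.566% of all genes) or calorie-restricted replicate 1 (1.01%) or 2 (0.754%). It was 1 without control replicate 4 (1.71%) or calorie-restricted replicate 3 (1.43%), and 2 without control replicate 3 (2.34%) or 5 (3.46%). It was 7 without control replicate 1 (6.48%) or calorie-restricted replicate 5 (10.8%), and 8 without calorie-restricted replicate 4 (9.31%).

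The glutathione peroxidases use glutathione to reduce hydrogen peroxide and lipid peroxides. Gpx1, the cytosolic enzyme, had signals of 28915, 30941, 27048, 27997 and 24924 in calorie-restricted kidneys and of 20368, 22453, 22553, 21741 and 22114 in controls. The diets did not overlap, and the means were 27965 ± 2228 in calorie-restricted kidneys and 21846 ± 885 in controls (SD, n = 5 each), a log2 difference of 0.35 ± 0.07 (SE; limma adjusted p = 0.0198). Gpx3, the secreted enzyme, had signals of 34975, 38169, 33478, 36275 and 29057 in calorie-restricted kidneys and of 22115, 25885, 28139, 26099.5 and 27588 in controls. Again no control reached the lowest calorie-restricted value, and the difference was 0.40 ± 0.09 (limma adjusted p = 0.0233). Gpx4, which reduces lipid peroxides within membranes, had signals of 22236, 18973, 19843, 19038 and 18276 in calorie-restricted kidneys and of 15973, 12257, 16293, 16269 and 16622 in controls. All 5 calorie-restricted values were above all controls (0.35 ± 0.09, limma adjusted p = 0.0418), but the other probe set of Gpx4 differed by 0.09 ± 0.07 and did not pass. Under quantile normalization the differences of Gpx1, Gpx3 and Gpx4 were 0.05, 0.06 and 0.14, and in replicates 4 and 5 of each group, at the authors' scaling, 0.27, 0.27 and 0.18; with both settings together that of Gpx4 was -0.0043.

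The superoxide dismutases differ in place: SOD1 is cytosolic, SOD2 mitochondrial and SOD3 extracellular. Sod1 had signals of 23105, 25681, 22188, 24881 and 21037 in calorie-restricted kidneys and of 20551, 18669, 19385, 19179.8 and 19679.9 in controls. The lowest calorie-restricted mouse was just above the highest control. The log2 difference was 0.26 ± 0.07 (limma adjusted p = 0.0471). Its other tested probe sets differed by 0.28 ± 0.10, -0.14 ± 0.18 and -0.04 ± 0.14 and did not pass. Sod2 had signals of 15883, 15844, 13705, 14306 and 13605 in calorie-restricted kidneys and of 12749.6, 11320.1, 11677, 11526 and 11539 in controls. These did not overlap either, and the difference was 0.32 ± 0.07 (limma adjusted p = 0.0302), but 0.14 after quantile normalization, where it did not pass. Of the 3 other tested probe sets of Sod2, one also rose (0.69 ± 0.19, adjusted p = 0.046) and the others differed by 0.03 and 0.02. Sod3 had signals of 5715, 6677, 6732, 5806 and 6086 in calorie-restricted kidneys and of 5379.6, 3644, 5136, 3933 and 5347 in controls. Its values did not overlap, yet it missed the threshold narrowly (0.42 ± 0.12, limma adjusted p = 0.0511), and its dimmer probe set differed by -0.32 ± 0.17. Sod3 passed without control replicate 1 (0.47) or calorie-restricted replicate 4 (0.44).

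**Figure D1:**
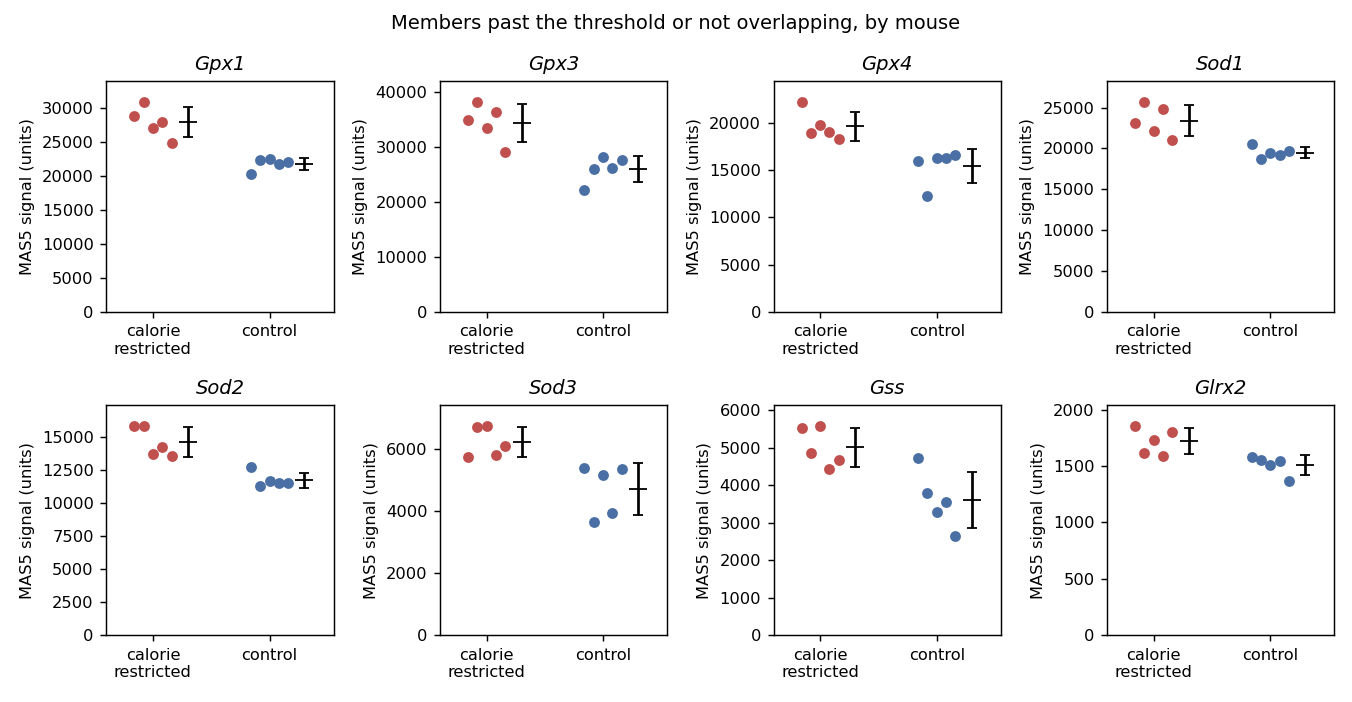
MAS5 signal (linear units, from 0) of each mouse for the 8 members that passed the threshold or whose diets did not overlap; points are mice, calorie restricted at the left and control at the right, and the bar beside them is the mean ± SD (n = 5). Gss overlaps between the diets, and the other 7 do not. Sod3 and Glrx2 did not pass the threshold. None of the 8 passed after quantile normalization, where 3.31% of all genes passed and Sod1 differed by -0.0026.

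Values of the diets did not overlap for 7 of 29 members (24.1%), Gpx1, Gpx3, Gpx4, Sod1, Sod2, Sod3 and Glrx2, all higher in calorie-restricted kidneys, beside 7.49% of all genes tested (3.8% in that direction). The members are bright, with a median log2 signal of 11.77 against 9.39 over all genes, and the difference between the diets changed with brightness over the whole array. Among genes from log2 8 to 9, the median difference was -0.04 and 1.35% passed as higher. Among the 315 genes from 13 to 14 it was 0.17 and 16.8% passed as higher. Among the 149 genes at or above 14 it was 0.31, 56.4% passed as higher and 0 as lower. Of the 6 members that passed, Gpx1, Gpx3, Gpx4 and Sod1 are among those 149 genes. So is Txn1, which differed by 0.05.

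Each member was therefore set beside the genes within 0.5 of its own mean log2 signal, a width chosen after the data were seen. Sod1 differed by 0.26 where the 165 genes of like brightness had a median of 0.28. Gpx1 differed by 0.35 where 125 genes had a median of 0.31, and Gpx3 by 0.40 where 70 genes had a median of 0.33. Sod2 (0.32 beside 0.20) and Gpx4 (0.35 beside 0.23) lay inside the interquartile range of their neighbours, as Sod1 and Gpx1 did. Gpx3 was just above the upper quartile (0.39). Gss stood further from its neighbours, at 0.49 beside 0.04 over 860 genes, and so did Sod3 (0.42 beside 0.07), Pgd (0.41 beside 0.03) and Me1 (0.40 beside 0.02). Over the 29 members 8 lay above the upper quartile of genes of like brightness, 17 inside the quartiles and 4 below, and the median distance from the neighbours' median was 0.03. The 4 below were Nfe2l2, Glrx, Txnrd1 and Txn1. In the 2787 genes whose brightness lay within the interquartile range of the members', log2 10.43 to 12.77, the median difference was 0.01, 51% lay above 0, 8.29% passed (4.45% higher and 3.84% lower), 33.3% had an unadjusted p under 0.05, and the diets did not overlap for 9.15%. Gpx1, Gpx3, Gpx4, Sod1 and Sod2 are brighter than this range, and no share of genes without overlap is given for genes as bright as these.

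**Figure D2:**
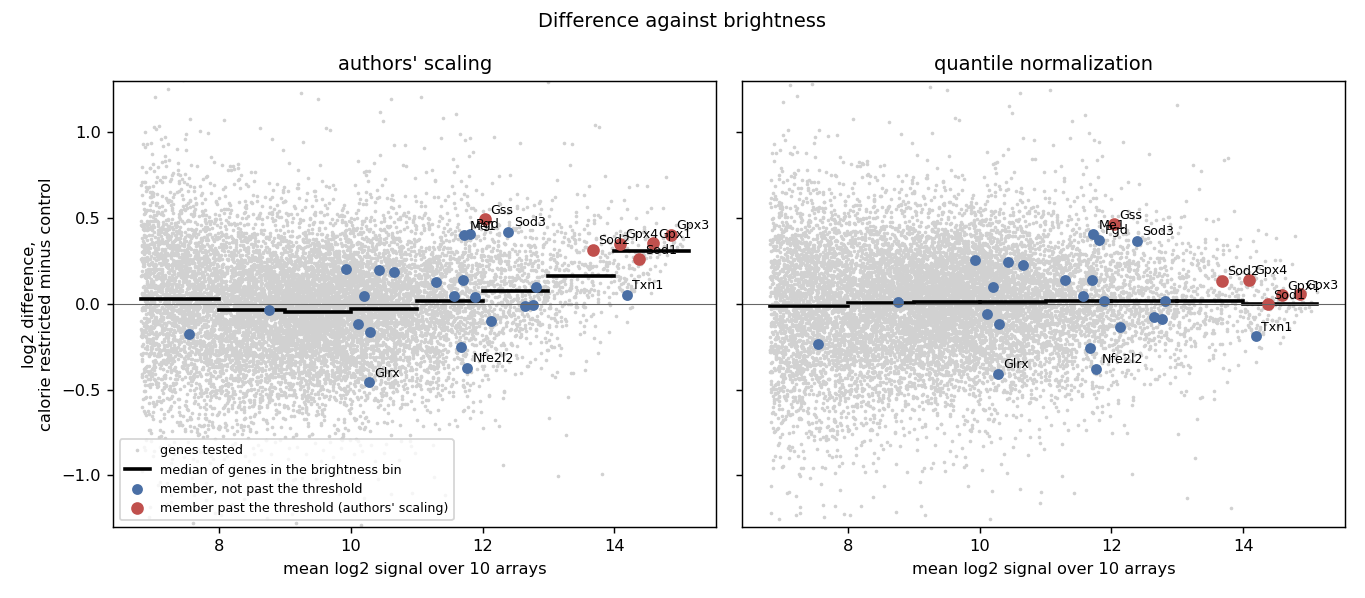
Log2 difference, calorie restricted minus control, of each tested gene (grey) and each tested member (coloured) against mean log2 signal over 10 arrays, with the authors' scaling at the left and quantile normalization at the right; black bars are medians of all genes in a brightness bin, and genes beyond the axis are not drawn. With the authors' scaling the bar rises to 0.31 at the bright end, where Gpx1, Gpx3, Gpx4 and Sod1 lie. With quantile normalization the bars lie between -0.011 and 0.017, and Sod1 is at -0.0026. None of the coloured genes passed there, beside 3.31% of all genes.

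Glutathione is made from glutamate, cysteine and glycine in 2 steps, by glutamate-cysteine ligase (catalytic subunit Gclc, modifier subunit Gclm) and then by glutathione synthetase (Gss), and glutathione reductase (Gsr) recycles its oxidised form. Gss had signals of 5528, 4866, 5591, 4434 and 4664 in calorie-restricted kidneys and of 4719, 3804, 3301, 3558 and 2654 in controls. A single control mouse, replicate 1, lay within the calorie-restricted range, and the difference was 0.49 ± 0.13 (limma adjusted p = 0.0449). It was 0.46 after quantile normalization (adjusted p = 0.0587) and 0.57 in replicates 4 and 5 of each group. The other probe set of Gss differed by 0.17 ± 0.14.

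The first and rate-limiting step did not differ beyond the spread between mice. Gclc had signals of 3507, 4435, 5682, 4865 and 3604 in calorie-restricted kidneys and of 4373, 5096, 4528, 4885 and 4430.0 in controls, which overlapped fully (-0.10 ± 0.13, limma adjusted p = 0.651). Gclm had signals of 2694, 2995, 4204, 4042 and 3853 in calorie-restricted kidneys and of 3867, 3259.9, 3182, 3010.0 and 2691 in controls. Its difference was 0.14 ± 0.14 (limma adjusted p = 0.547), while its dimmer probe set differed by -0.39 ± 0.16. Gsr had signals of 2991, 2851, 2991, 3083 and 3467 in calorie-restricted kidneys and of 2517, 3614, 3788, 2911 and 2322 in controls. Both diets centred on the same level (0.05 ± 0.13, limma adjusted p = 0.86), with a wider range among controls. Ggct, which breaks down gamma-glutamyl peptides, had signals of 1181 to 1769.9 in calorie-restricted and 906 to 2573 in control kidneys. Control replicate 1 was the highest mouse, and the difference was 0.19 ± 0.23 (limma adjusted p = 0.62). It was 0.44 without that mouse, 0.13 without control replicate 2 or calorie-restricted replicate 3 and 0.07 without control replicate 4, and did not pass in these cases. Slc7a11 had signals of 83.1, 49.8, 12.4, 1.6 and 13 in calorie-restricted kidneys and of 20.6, 50, 45, 38.7 and 42.8 in controls, all below the testing limit of 112.5, and no difference is given.

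Nfe2l2 was lower on average, without passing the test. Its signals were 2545, 2519, 2957, 3869.8 and 3743 in calorie-restricted kidneys and 3528, 4134, 4140.2, 4018 and 4095 in controls. Calorie-restricted replicates 1, 2 and 3 lay below every control, and replicates 4 and 5 lay within the control range. The log2 difference was -0.37 ± 0.13 (limma adjusted p = 0.0891); it passed without calorie-restricted replicate 4 (-0.45) or 5 (-0.44). Keap1 had signals of 1011, 990.3, 1104, 1083 and 998 in calorie-restricted kidneys and of 835, 1006, 831, 1030.1 and 824 in controls. It overlapped between the diets and differed by 0.20 ± 0.11 (limma adjusted p = 0.238).

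Nqo1, the quinone reductase often read as the index of NRF2 activity, had signals of 1395, 1075, 1066, 1260.2 and 1222 in calorie-restricted kidneys and of 911, 1245, 1624, 1099 and 1035 in controls. Control values spanned more than the calorie-restricted ones, and the difference was 0.05 ± 0.15 (limma adjusted p = 0.87), below 0 with median centring (-0.05). Hmox1, haem oxygenase, had signals of 86.5, 137, 321, 175 and 246 in calorie-restricted kidneys and of 116, 204, 182, 313 and 223 in controls. These values lay on both sides of the testing limit of 112.5 and were scattered within both diets (-0.18 ± 0.33, limma adjusted p = 0.773). Srxn1, which restores over-oxidised peroxiredoxins, had signals of 1217, 1043, 1003, 963 and 1103 in calorie-restricted kidneys and of 903, 1166, 1439, 1123 and 1182 in controls. Its difference was -0.11 ± 0.13 (limma adjusted p = 0.597). Ephx1, microsomal epoxide hydrolase, had signals of 2460.3 to 2776 in calorie-restricted and 2008 to 2739.5 in control kidneys and differed by 0.13 ± 0.10 (limma adjusted p = 0.459).

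Txnrd1, the cytosolic thioredoxin reductase, had signals of 2694, 2769, 2686, 3392 and 3473 in calorie-restricted kidneys and of 3208, 3506, 3828, 3859 and 3407 in controls. As for Nfe2l2, calorie-restricted replicates 1, 2 and 3 lay below every control (-0.25 ± 0.10, limma adjusted p = 0.141). Of the rest of the thioredoxin and glutaredoxin genes, 0 of 6 passed in limma, 1 with an unadjusted p under 0.05. That one was Glrx, the cytosolic glutaredoxin, with signals of 1428, 845, 762, 1081 and 1358 in calorie-restricted kidneys and of 1142, 1879, 1826, 1455 and 1153 in controls. The diets overlapped, and it differed by -0.46 ± 0.20 (limma adjusted p = 0.16), and its dimmer probe set by -0.79 ± 0.24. Glrx2, its mitochondrial relative, had signals of 1857, 1615, 1728, 1589.6 and 1804 in calorie-restricted kidneys and of 1581, 1550.3, 1505, 1548 and 1365 in controls. The lowest calorie-restricted mouse was barely above the highest control, and the difference, 0.19 ± 0.09, did not pass (limma adjusted p = 0.213). Cytosolic thioredoxin, Txn1, had signals of 16915 to 20592 in calorie-restricted and 16296 to 19357 in control kidneys, and mitochondrial thioredoxin, Txn2, of 3456 to 4379 in calorie-restricted and 3474 to 4102 in control kidneys. Their differences were 0.05 ± 0.08 and 0.04 ± 0.09, and after quantile normalization that of Txn1 was -0.19. The mitochondrial reductase Txnrd2 had signals of 377 to 550.0 in calorie-restricted and 335 to 569 in control kidneys, and the methionine sulfoxide reductase Msra of 5891 to 8532 in calorie-restricted and 5492 to 8236 in control kidneys. Both overlapped between the diets, with differences of -0.04 ± 0.16 and -0.01 ± 0.12.

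Peroxiredoxins reduce peroxides through a reactive cysteine that thioredoxin restores. The 3 that could be tested did not pass. Prdx2, abundant in the cytosol of red cells and other cells, had signals of 6907 to 8105 in calorie-restricted and 6489 to 7431 in control kidneys and differed by 0.10 ± 0.08 (limma adjusted p = 0.46). Prdx3 of mitochondria had signals of 6082 to 6707 in calorie-restricted and 5731 to 7423 in control kidneys and differed by -0.01 ± 0.09 (limma adjusted p = 0.96). Prdx4 of the endoplasmic reticulum had signals of 1004, 1078, 943, 1651 and 1396 in calorie-restricted kidneys and of 1438, 1395, 1372, 1049 and 1438 in controls. Both its highest value, replicate 4, and its lowest, replicate 3, were calorie-restricted ones (-0.16 ± 0.16, limma adjusted p = 0.539). Dimmer tested probe sets of Prdx4 differed by -0.25 ± 0.18 and 0.29 ± 0.11, neither past the threshold. The first of these read 1106, 824 and 882 in calorie-restricted replicates 1 to 3, and 642 and 739 in replicates 4 and 5.

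NADPH keeps glutathione and thioredoxin reduced. Pgd, the second dehydrogenase of the pentose phosphate pathway, had signals of 5333, 5018, 3904, 3312 and 3482 in calorie-restricted kidneys and of 2890.3, 2658, 3456, 3553 and 3101 in controls. Replicates 1 and 2 of the calorie-restricted mice stood above the rest, replicates 4 and 5 fell within the control range, and the difference was 0.41 ± 0.14 (limma adjusted p = 0.0881). It was 0.03 in replicates 4 and 5 of each group, and another probe set of Pgd differed by -0.06 ± 0.12. Me1, cytosolic malic enzyme, had signals of 3482, 3548, 3993, 4169 and 4307 in calorie-restricted kidneys and of 5326, 2639.9, 3611, 1677 and 2598 in controls. The calorie-restricted mice lay close together, while controls spread from 1677 to 5326 (0.40 ± 0.23, limma adjusted p = 0.277). The difference was 0.20 without control replicate 4 and 0.61 without control replicate 1, and the other probe set of Me1 differed by 5e-04 ± 0.25.

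**Figure D3:**
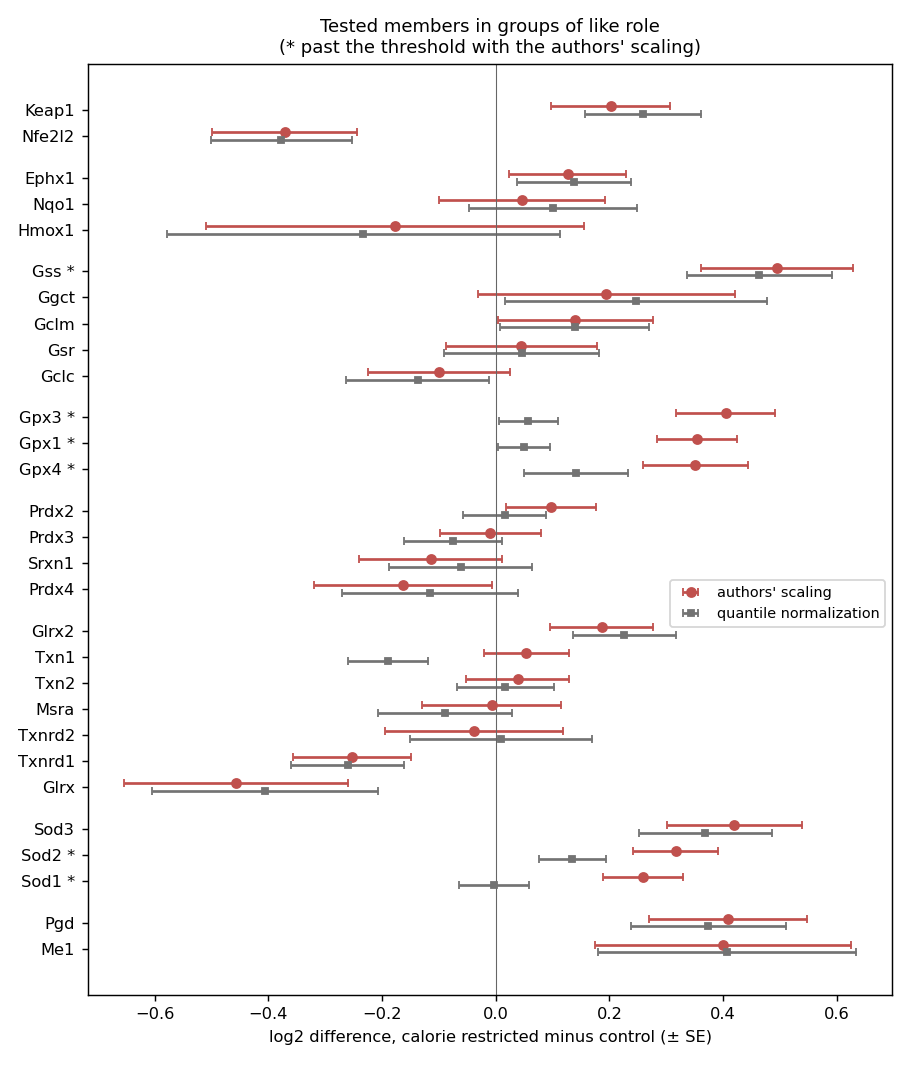
Log2 difference, calorie restricted minus control, ± SE (limma, n = 5 per diet) of the 29 tested members grouped by role, with the authors' scaling (circles) and after quantile normalization (squares); an asterisk marks the 6 that passed with the authors' scaling. The squares of Gpx1, Gpx3, Sod1 and Txn1 lie well to the left of their circles, that of Sod1 at -0.0026 and that of Txn1 at -0.19, whereas those of Gss, Sod3, Pgd, Me1, Nfe2l2 and Glrx stay near theirs.

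Other probe sets of the same genes were a check within the array. Of 33 further tested probe sets of 20 members, 19 had the sign of the brightest one and 1, of Sod2, passed. Probe sets whose names end in x_at or s_at can bind transcripts of related genes, and those that stand here for Gss, Gpx4 and Pgd are of the x_at kind. So are those of the pathway genes Fbxw11, Akr7a5 and Tkt named below.

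The 3' to 5' signal ratio of the Gapdh and Actb controls, which rises where RNA is shorter, was highest on 3 calorie-restricted arrays. It was 1.75 to 2.21 (log2) on calorie-restricted arrays 1 to 3, 1.24 and 1.16 on arrays 4 and 5, and 0.76 to 1.39 on control arrays. In replicates 4 and 5 of each group alone, Nfe2l2 differed by -0.09, Txnrd1 by -0.08, Prdx4 by 0.31, Gclm by 0.47 and Me1 by 1.02. There 0 of 29 members passed in limma (10 at an unadjusted p under 0.05), beside 1.01% of all genes. With the ratio as a covariate Nfe2l2 differed by -0.08, Txnrd1 by -0.10, Prdx4 by 0.20, Gclm by 0.44 and Me1 by 0.77. Again 0 members passed (10 at an unadjusted p under 0.05), beside 0.0574% of all genes. The median over the members was 0.22 in those 4 arrays and 0.20 with the covariate, against 0.10 with all arrays, and 0.16 in the 4 arrays after quantile normalization. Its part in these results was not tested further.

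**Figure D4:**
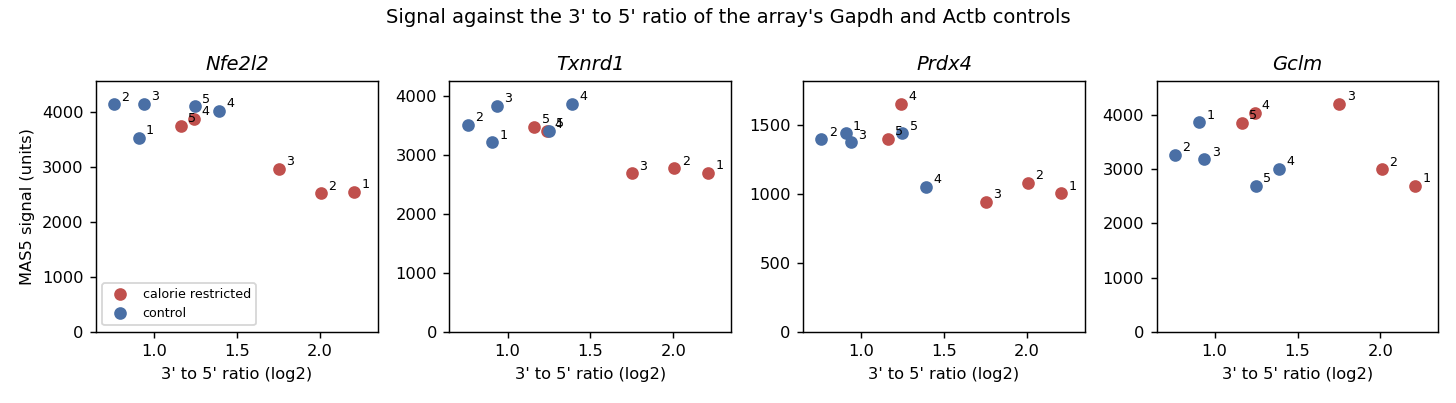
MAS5 signal (linear units, from 0) of Nfe2l2, Txnrd1, Prdx4 and Gclm on each array against the log2 3' to 5' ratio of the array's Gapdh and Actb control probe sets; numbers are replicates, and the 4 genes were chosen after their values were seen. Calorie-restricted arrays 1 to 3 have ratios of 1.75 to 2.21, beyond all other arrays, and have the 3 lowest signals of Nfe2l2 and of Txnrd1. The Prdx4 probe set drawn is also low there, though control array 4 lies among them. Another probe set of Prdx4, not drawn, read 1106, 824 and 882 on those arrays, above 642 and 739 on calorie-restricted arrays 4 and 5. For Gclm calorie-restricted array 3 is the highest of all.

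Around the members, 95 of 112 listed genes of the same pathways were tested, and 13 (13.7%) passed, 9 higher and 4 lower, beside 6.1% of all genes (3.08% higher and 3.02% lower) and 56.4% higher among genes at or above log2 14. Glutathione turnover and cysteine supply had 3 of 13 higher and 0 lower. Cbs, the first enzyme from homocysteine towards cysteine, rose to 2253 ± 426 in calorie-restricted kidneys, against 1229 ± 454 in controls (SD, n = 5 each; 0.93 ± 0.21, limma adjusted p = 0.0265). The brush border peptidase Anpep, which splits cysteinylglycine from glutathione breakdown, rose to 1638 ± 321 in calorie-restricted kidneys, against 956 ± 186 in controls (0.78 ± 0.16, adjusted p = 0.0202), and Slc3a1, a subunit of the cystine carrier of the brush border, by 0.31 ± 0.08 (adjusted p = 0.043). Cbs and Anpep also passed after quantile normalization, at 0.97 and 0.83, and Slc3a1 did not (0.16). Of all genes 3.31% passed there.

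Among glutathione S-transferases 1 of 18 rose and 0 fell. It was Gstp1 (0.47 ± 0.10, limma adjusted p = 0.0213), whose probe set may also bind the near-identical Gstp2, and it fell short after quantile normalization (0.29, adjusted p = 0.0508). Other NRF2 target and detoxification genes had 3 of 17 higher and 0 lower. The aldehyde reductases Akr7a5 (0.75 ± 0.12, limma adjusted p = 0.0125) and Akr1a1 (0.46 ± 0.08, 0.0152) and the ferritin heavy chain Fth1 (0.33 ± 0.08, 0.0321) rose. After quantile normalization Akr7a5 still passed (0.54), while Akr1a1 (0.07) and Fth1 (-0.03) did not. Of regulators and partners of NRF2 1 of 9 rose and 0 fell, the ubiquitin ligase subunit Fbxw11 (0.39 ± 0.10, limma adjusted p = 0.0449; 0.30 after quantile normalization, not past the threshold). Other NADPH-supplying genes had 0 of 14 past the threshold in limma, 3 of them at an unadjusted p under 0.05. Isocitrate dehydrogenase Idh1 differed by 0.32 ± 0.10 (adjusted p = 0.0613) and transketolase Tkt by 0.41 ± 0.16 (adjusted p = 0.113). After quantile normalization they differed by 0.10 and 0.24, and in replicates 4 and 5 of each group by 0.37 and 0.01.

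Other peroxide, methionine sulfoxide and thiol genes had 1 of 16 higher, the selenium carrier Selenop (0.45 ± 0.08, limma adjusted p = 0.0159; 0.17 after quantile normalization, not past the threshold). The genes that fell, 2 of 16, were the methionine sulfoxide reductase Msrb3 (-0.53 ± 0.15, limma adjusted p = 0.0463) and the sestrin Sesn1 (-0.54 ± 0.13, limma adjusted p = 0.0343). The other glutathione peroxidases tested, Gpx6 (-0.19 ± 0.19), Gpx7 (-0.11 ± 0.24) and Gpx8 (-0.52 ± 0.17, limma adjusted p = 0.0821), did not pass, and Gpx2 was too dim to test. Superoxide-producing oxidases had 2 of 8 lower and 0 higher, both parts of the phagocyte NADPH oxidase. Cyba, the bright membrane partner of Cybb, differed the other way without passing (0.30 ± 0.09, limma adjusted p = 0.0579; 0.09 after quantile normalization). Cybb, its catalytic subunit, fell to 386 ± 90.9 in calorie-restricted kidneys, against 569 ± 51.2 in controls (SD, n = 5 each; -0.59 ± 0.15, limma adjusted p = 0.0399), and Ncf1, a cytosolic subunit, to 199.7 ± 41.7 in calorie-restricted kidneys, against 331 ± 75.4 in controls (-0.72 ± 0.19, limma adjusted p = 0.0402). After quantile normalization Msrb3, Sesn1, Cybb and Ncf1 differed by -0.51, -0.49, -0.53 and -0.71 and were just short of the threshold (adjusted p = 0.0506 to 0.0597).

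Several lists of cell type markers also differed between the diets. The counts below stand beside 3.08% of all genes higher and 3.02% lower with the authors' scaling. After quantile normalization 3.31% of all genes passed in either direction. Proximal tubule markers, the defining genes of the segment that makes GPX3, were higher in 13 of 21 cases and lower in 0 with the authors' scaling. Their summed signal was 350088 to 409394 in calorie-restricted and 248377 to 301716 in control kidneys. They are bright as well, and 16.8% of all genes from log2 13 to 14 and 56.4% at or above 14 passed as higher. After quantile normalization 3 of the 21, Ttc36, Slc22a6 and Kap, were higher and 0 lower, and Miox was at -0.03, against 0.31 with the authors' scaling. Macrophage and monocyte markers, cells that carry the phagocyte oxidase, were lower in 5 of 14 tested cases (3 after quantile normalization) and higher in 0, with a summed signal of 17965 to 30259 in calorie-restricted and 25806 to 46194 in control kidneys. Listed red cell markers, which matter for Prdx2 and Gpx1, summed to 2200 to 3646 in calorie-restricted and 1404 to 1990 in control kidneys. Of the 3 tested 1 was higher, Slc4a1, and 0 after quantile normalization, where it had an adjusted p of 0.0501 in limma. Slc4a1 gave the largest part of the sums, with means of 1623 in calorie-restricted and 1013 in control kidneys, and its cell of origin was not tested. Alas2 (0.70) and Hbb-b2 (0.53) did not pass. Of the 12 listed red cell genes, 6 had a probe set annotated to that symbol alone. By such probe sets the globins Hba-a1 (means of 51.9 in calorie-restricted and 57.1 in control kidneys) and Hba-a2 (39.9 and 61) were too dim to test. Probe sets annotated to several genes were not used, so these values do not give the globin level of the kidneys. Adipocyte markers were lower in 2 of 4 cases, Fabp4 at -0.77 and Cidea at -1.10, and summed to 7021 to 12460 in calorie-restricted and 14141 to 19823 in control kidneys; Fabp4 also passed after quantile normalization. Liver markers were higher in 1 of 5 cases, Alb by 1.53 (1.57 after quantile normalization, also past the threshold), and summed to 14227 to 17500.0 in calorie-restricted and 11483 to 16329 in control kidneys. Thick limb, distal tubule and collecting duct markers had 0 of 9 past the threshold, with a median difference of 0.07. Podocyte markers were lower in 1 of 4 cases, Wt1 at -0.71, which also passed after quantile normalization. Adrenal markers had 0 of 2 past the threshold. The part of these cell types in the results was not tested. In whole kidney RNA, fewer cells of a type and less RNA per cell cannot be told apart. The labelled tissue was borne out by kidney markers, with mean signals of 28615 in calorie-restricted and 21881 in control kidneys for Slc34a1 and of 31542 in calorie-restricted and 25838 in control kidneys for Umod.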

How the data were processed

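Total RNA of whole kidney was labelled and hybridised to Affymetrix mouse arrays, 1 mouse per array, 5 arrays per diet. The authors deposited 1 signal intensity per probe set and array, which the submitters' processing notes credit to MAS5 in Affymetrix Expression Console (versions not given in the sources used here). The number of arrays limits the precision. The 45101 probe sets included 64 array controls, left out of the tests. Signals were floored at 1 and taken to log2. Probe sets at or above the median mean log2 signal of 6.81 (a signal of 112.5) were tested, 22517 in all, and 0 of their values were at the floor. Diets were compared with limma 3.58.1 in R 4.3.3 (lmFit, eBayes with an intensity trend, Benjamini-Hochberg over all tested probe sets, threshold 0.05); a fit on simulated data with known changes was checked first. A gene was its brightest probe set with exactly 1 symbol in the platform annotation. Of the probe sets, 34958 had 1 symbol, 932 several and 9211 none. Of those with 1 symbol, 34754 had a gene ID found in RefSeq's table. Promoters came from RefSeq, GRCm38.p6.

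Members and pathway lists were chosen with earlier results of these data known. Values of each mouse were printed for members that passed or whose diets did not overlap, and for a fixed set of well-known members; Glrx, Prdx4, Pgd and Me1 were added after their values were seen. From each pathway list up to 4 genes past the threshold, or 2 where none passed, were named by smallest p. Replicate numbers did not pair the samples. Alternatives were the filter, normalization, an added constant of 50, the variance model, array weights, a replicate block, a covariate for the 3' to 5' ratio, replicates 4 and 5 alone, averaging all probe sets of a gene and leaving out each array. After the data were seen, replicates 4 and 5 of the calorie-restricted mice with the 5 controls, and quantile normalization with replicates 4 and 5, were added.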

Additional observations from a re-analysis of the deposited data

Results flagged for a closer look

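In 6 of 58 groups of 5 mice (29 members, 2 diets) 1 mouse stood apart from the others of its diet by Dixon's criterion, which chance alone meets in about 1 group in 20. Among calorie-restricted kidneys this was Txnrd2 in replicate 4, at 550.0, above 377 to 413 in the rest. Among controls it was Nfe2l2 in replicate 1, at 3527.5, below 4018 to 4140.2. Gpx4 in control replicate 2 was at 12257.2, below 15973 to 16622, and without that mouse the difference of Gpx4 was 0.27 and did not pass. Prdx4 in control replicate 4 was at 1048.7, below 1372 to 1438, and Txn1 in control replicate 5 at 16295.9, below 18623 to 19357. Sod2 in control replicate 1 was at 12749.6, above 11320.1 to 11677.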

How the results depend on the processing

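With 5 arrays per diet, the number of calls moved widely with the settings, and the cause was not tested. With the settings of the report 1371 probe sets passed the threshold in limma (659 higher, 712 lower). Separate fits called 287 with no filter on signal, 751 after quantile normalization, 243 without the intensity trend, 2292 with array weights, 9 with a covariate for the 3' to 5' ratio, 198 in replicates 4 and 5 of each group, 156 there after quantile normalization, 1 for calorie-restricted replicates 4 and 5 set beside all controls, and 125 to 2481 with 1 array left out. Median centring, which moved the median of all genes to -0.10, gave 317 higher and 1226 lower. The 6 members past the threshold became 0 under 7 of these settings: with no filter (12 at an unadjusted p under 0.05), after quantile normalization (9), without the trend (10), with the covariate (10), in replicates 4 and 5 of each group (10), there after quantile normalization (5), and for calorie-restricted replicates 4 and 5 against all controls (8). Of all genes 0 to 3.31% passed in these 7 settings, against 6.1% with the settings of the report. The count of members was 2 under median centring (6.94% of all genes) and with a gene's probe sets averaged (4.71%). It was 7 with a stricter filter (10.9%), with 50 added (6.38%) or with array weights (10.2%). With 1 array left out it was 0 to 8 (0.566% to 10.8%). The median member difference of 0.10 was -2e-04 under median centring, 0.20 with the covariate, 0.22 in replicates 4 and 5 of each group, 0.16 there after quantile normalization, 0.19 for calorie-restricted replicates 4 and 5 set beside all controls, and 0.067 to 0.14 with 1 array left out.

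Same-numbered replicates did not deviate together (correlations of -0.141 to -0.087). The fit with the replicate block called 127 probe sets, 0.615% of all genes and 0 members (10 at an unadjusted p under 0.05). No mouse correlated best with its own number.

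Of 666 member values under alternatives, 517 kept their direction and side of the threshold, 91 lost it, 8 gained it and 50, of 14 members, changed sign, with 0 past the threshold there. Under quantile normalization these were Sod1 at -0.0026, Txn1 at -0.19 and Txnrd2 at 0.0093. Under median centring they were Nqo1 at -0.0513, Gsr at -0.0525, Prdx2 at -2e-04, Txn1 at -0.0439 and Txn2 at -0.0592. With array weights they were Nqo1 at -0.0184 and Gsr at -0.0085, and with the mean of probe sets Gclm at -0.12, Gsr at -0.0906 and Txnrd2 at 0.0413. With the covariate they were Hmox1 at 0.0845, Prdx3 at 0.12, Prdx4 at 0.20, Txnrd2 at 0.0258 and Msra at 0.28. In replicates 4 and 5 of each group they were Prdx3 at 0.22, Prdx4 at 0.31, Txnrd2 at 0.12 and Msra at 0.39. After quantile normalization there they were Gpx4 at -0.0043, Prdx3 at 0.16, Prdx4 at 0.34, Txn1 at -0.0228, Txnrd2 at 0.16, Msra at 0.30 and Pgd at -0.0027. For calorie-restricted replicates 4 and 5 against all controls they were Hmox1 at 0.0687, Prdx3 at 0.0487, Prdx4 at 0.19, Txnrd2 at 0.0581 and Msra at 0.20. With 1 array left out the range crossed 0 for Gsr (-0.0439 to 0.13), Hmox1 (-0.40 to 0.0767), Msra (-0.0941 to 0.0540), Nqo1 (-0.0404 to 0.17), Prdx3 (-0.0524 to 0.0409), Txn2 (-0.0072 to 0.0781) and Txnrd2 (-0.13 to 0.0568).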

Other observations

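Of the 13 pathway genes that passed with the authors' scaling, Cbs, Anpep and Akr7a5 also passed after quantile normalization. That is 3 of the 95 tested, close to the 3.31% of all genes that passed there. In replicates 4 and 5 of each group, whose 3' to 5' ratios are alike, these 3 differed by 0.85, 0.38 and 0.53, values given without a test of their own. The mean signal of Akr7a5 was 19457 ± 3443 in calorie-restricted and 11500.1 ± 1107 in control kidneys (SD, n = 5 each), a 1.68-fold rise, beside 1.20- to 1.41-fold for the 6 members that rose. The Akr7a5 probe set is of the x_at kind. Its signals were 21951, 23421 and 19669 in calorie-restricted replicates 1 to 3, and lower, 17387 and 14858, in replicates 4 and 5.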
